A study of Mus musculus with 10 samples.

Results

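The 9 genes described here handle oxygen in muscle: Mb, Hif1a, Epas1, Egln1, Egln3, Vegfa, Vegfb, Kdr and Flt1. They were chosen by name for their roles, though with earlier results of these data known, and all 9 were found among the 16112 genes with a count. RNA-seq libraries were compared from the extensor digitorum longus (EDL, 3 libraries), a fast-twitch muscle of the lower leg, the psoas (3 libraries), a fast-twitch muscle of the hip, and the soleus (4 libraries), a slow-twitch postural muscle of the lower leg. All mice were labelled wild type in the B6C3Fe a/a-Ttnmdm/J strain, a line kept for a titin mutation that these animals did not carry, and were between 32 and 54 days old. For 5 libraries the animal was recorded as male and for 4 as female, and for soleus 3 no sex was given. The mice also served in a different experiment, and the sources used here name no treatment. The sample identifiers held 7 animal codes for the 10 libraries, shared by psoas 1 and soleus 1, by EDL 3 and soleus 2, and by psoas 3 and soleus 4. The methods of the study give fewer mice than codes, so the number of animals, and with it which other libraries share one, is in doubt.

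Myoglobin, encoded by Mb, binds oxygen inside muscle fibers and carries it toward the mitochondria. Hypoxia-inducible factors are transcription factors with an oxygen-sensitive alpha subunit, encoded by Hif1a or Epas1, which pairs with the stable subunit encoded by Arnt and binds a short DNA core in target genes. While oxygen is plentiful, the prolyl hydroxylases encoded by Egln1 and Egln3 mark the alpha subunits for destruction. Vegfa encodes a ligand of the endothelial receptors encoded by Kdr and Flt1, and Vegfb encodes a ligand of Flt1. Kdr carries most of the growth signal to capillaries, and Flt1 binds the Vegfa ligand tightly while signalling weakly. Slow, oxidative muscles are known for more myoglobin and denser capillaries than fast muscles. The alpha subunits are controlled mainly after translation, so RNA levels do not measure their activity.

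Between 12737971 and 50431713 reads were counted per library. The levels below are FPKM, that is, TMM-scaled counts per 1000000 reads (CPM) divided by the exon length of the gene in kilobases, so they can be compared between genes as well as between muscles. The muscles carried the myosins of their names: Myh7, the slow myosin, was at 793 to 1575 FPKM in soleus and at 0.371 to 13.6 FPKM in the other libraries, whereas Myh4, the fastest myosin, was at 6379 to 9419 FPKM in EDL and psoas. The reads of EDL 1, EDL 2, psoas 1 and psoas 2 had been trimmed before alignment and those of no soleus library. In EDL and psoas the trimmed libraries were all male and the untrimmed library was female, so trimming and sex cannot be told apart there. By the study's own alignment summary, EDL 1, psoas 1, psoas 2 and soleus 1 had a low share of mapped reads. Fold changes came from edgeR's quasi-likelihood test over all 16112 genes, and a gene was called at an adjusted p under 0.01 with a fold change over 2. Each call was repeated under 22 other settings, which include each library left out in turn. Since whole muscles were sequenced, fewer cells of a type and less RNA per cell cannot be told apart.

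Promoter stretches are shown here because Mb, Egln1 and Egln3 had their highest mean levels in soleus and because hypoxia-inducible factors bind the core ACGTG or GCGTG. Each stretch is the 250 bases before a transcription start in RefSeq (GRCm38.p6, minus strand, written 5′ to 3′ along the gene), with the core on either strand in capitals. The Mb stretch lies at chr15:77022788-77023037, the Egln1 stretch at chr8:124949255-124949504 and the Egln3 stretch at chr12:54203875-54204124.
Mb: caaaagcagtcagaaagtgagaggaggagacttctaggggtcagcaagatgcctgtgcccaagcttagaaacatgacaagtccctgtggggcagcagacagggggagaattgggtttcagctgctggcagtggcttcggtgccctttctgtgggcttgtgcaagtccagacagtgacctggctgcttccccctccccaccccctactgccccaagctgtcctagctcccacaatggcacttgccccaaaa
Egln1: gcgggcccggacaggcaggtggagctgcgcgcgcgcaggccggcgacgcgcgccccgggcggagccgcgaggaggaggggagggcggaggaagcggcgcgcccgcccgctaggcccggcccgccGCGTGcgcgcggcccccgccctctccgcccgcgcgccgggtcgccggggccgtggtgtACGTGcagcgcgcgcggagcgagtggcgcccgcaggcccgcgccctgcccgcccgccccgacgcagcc
Egln3: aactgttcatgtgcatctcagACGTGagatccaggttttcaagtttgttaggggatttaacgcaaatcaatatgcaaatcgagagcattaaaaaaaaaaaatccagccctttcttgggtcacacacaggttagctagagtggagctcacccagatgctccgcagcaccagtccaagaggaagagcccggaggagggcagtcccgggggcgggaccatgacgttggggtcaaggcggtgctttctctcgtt
The Egln1 stretch held 2 matches, 1 of each core, the Egln3 stretch held 1 match and the Mb stretch held 0, as did the stretches before the other annotated Mb starts. The core is common: 38.6% of the 32851 promoter stretches of the same length in the table held it, so a match in these letters describes the sequence and says nothing of binding. Entries were found for 8 of the 9 genes, Epas1 being the exception. The core also stood before Hif1a (3 matches, 2 of which overlap in the letters CACGTG, 1 on each strand), Kdr (2), Vegfb (2) and Flt1 (1). It stood before 1 annotated Vegfa start (2 matches) but not before another. None of these genes was called in the fit of all libraries.

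Mb was by far the most abundant of the 9 transcripts in every muscle, and its level was higher in soleus than in either fast muscle. In EDL it was at 843, 1109 and 1138 FPKM, in psoas at 879, 1347 and 1552 FPKM, and in soleus at 4680, 3584, 4922 and 3850 FPKM. Each soleus library was thus above each library of the fast muscles, while EDL and psoas overlapped. The level was 4.13-fold higher in soleus than in EDL (log2 fold change 2.05, SE 0.28, edgeR adjusted p = 0.000829) and 3.38-fold higher than in psoas (log2 fold change 1.76, SE 0.28, edgeR adjusted p = 0.00179). Between psoas and EDL the log2 fold change was 0.29, with a 95% interval from -0.33 to 0.91 (edgeR adjusted p = 0.537). The soleus levels were above EDL in all 22 other settings and past both thresholds in 20 of them, and above psoas in all 22 and past both thresholds in 19. Among the untrimmed libraries alone, where EDL and psoas are 1 library each, the log2 fold changes were 1.86 over EDL (edgeR adjusted p = 0.0801) and 1.45 over psoas (edgeR adjusted p = 0.145). Mb (ENSMUSG00000018893, chr15:77015487-77050670, minus strand) shares 64 exonic bases with Apol6 on the opposite strand. To Apol6, 6024 reads were assigned over the 10 libraries, against at least 30927 for Mb in each library. The antisense gene Gm49540, which shares 412 exonic bases with Mb, had no entry among the deposited counts.

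**Figure D1:**
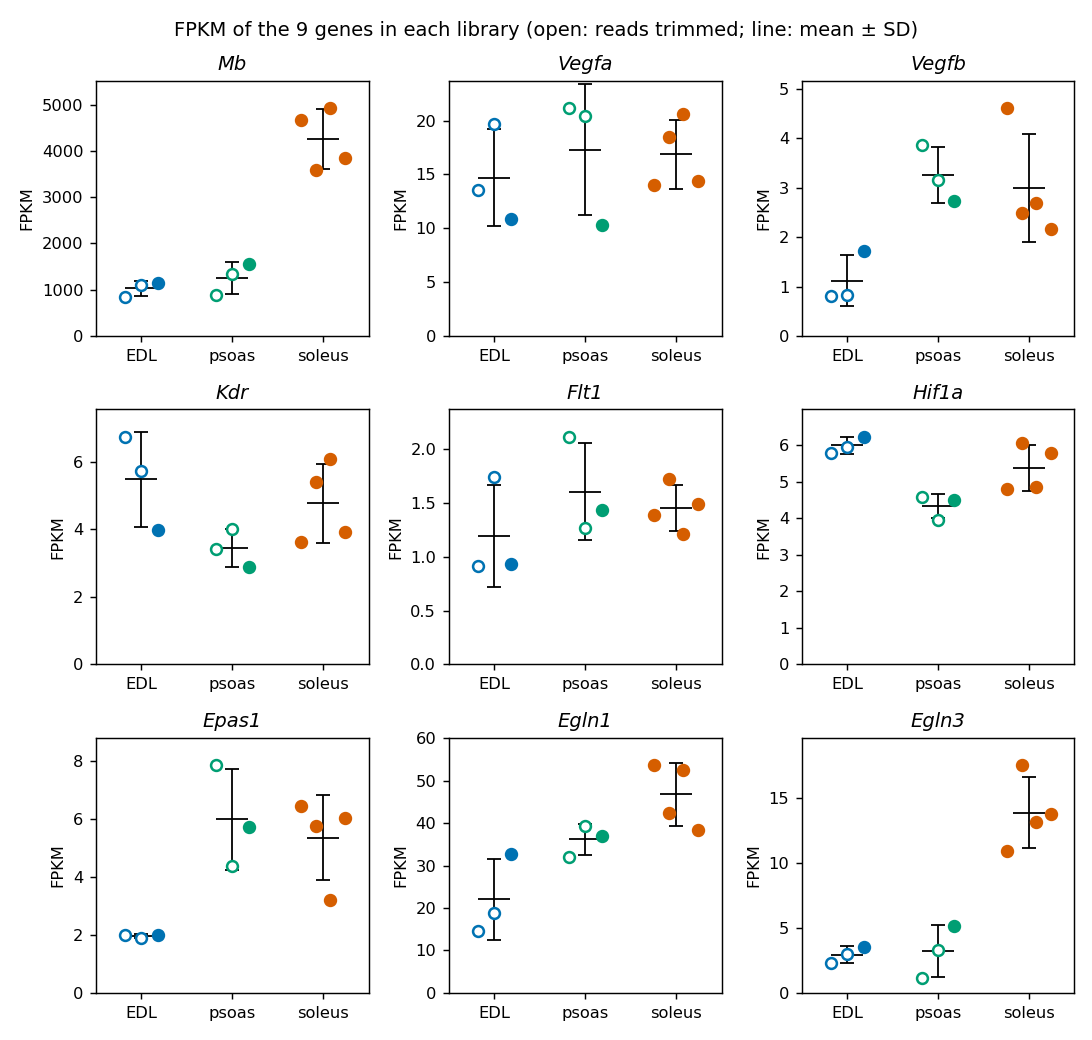
FPKM of each of the 9 genes (vertical axes, from 0) in the EDL, psoas and soleus libraries; points are libraries, open where reads were trimmed, and black lines give the mean ± SD. For Mb and Egln3 the 4 soleus points lie above all others, for Epas1 and Vegfb the 3 EDL points lie below all others, and for Vegfa and Flt1 the muscles overlap.

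Of the oxygen sensors, Egln3 was the gene that set soleus apart, and Egln1 the more abundant. Egln3, a prolyl hydroxylase gene that hypoxia itself induces in many cells, was at 2.28, 2.99 and 3.57 FPKM in EDL, at 1.16, 3.31 and 5.13 FPKM in psoas and at 10.9, 17.5, 13.2 and 13.8 FPKM in soleus. No soleus library overlapped with a fast-muscle library, and the psoas libraries spanned the EDL range. The mean soleus level was 13.9 FPKM ± 2.73 (SD, n = 4), which is 4.72-fold above EDL (log2 fold change 2.24, SE 0.40, edgeR adjusted p = 0.00377) and 4.41-fold above psoas (log2 fold change 2.14, SE 0.40, edgeR adjusted p = 0.00473). The first call held in 17 of 22 other settings and was lost, with adjusted p values between 0.011 and 0.0429, with trimming as a covariate, among untrimmed libraries, and without EDL 1, EDL 2 or soleus 2. The second held in 15 of 22 and was lost without psoas 2, soleus 2 or soleus 4 among others, with a highest adjusted p of 0.064. The direction was the same in all 22 settings for both. Egln3 (ENSMUSG00000035105) lies at chr12:54178981-54203860 on the minus strand.

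Egln1, which encodes the main oxygen sensor of most tissues, came next after Mb in each muscle. It was at 14.7, 18.8 and 32.8 FPKM in EDL, at 32.1, 39.4 and 37.0 FPKM in psoas and at 53.7, 42.5, 52.5 and 38.5 FPKM in soleus. All soleus libraries were above all EDL libraries, but psoas overlapped with both, and EDL 3 was close to psoas. The level in soleus was 2.12-fold that in EDL (log2 fold change 1.09, SE 0.26, edgeR adjusted p = 0.0154), which missed the call. Leaving out EDL 3, the untrimmed and only female EDL library, raised the log2 fold change to 1.48 (edgeR adjusted p = 0.00109). The difference of psoas from EDL went from 0.72 to 1.11 (edgeR adjusted p from 0.108 to 0.00646). Among untrimmed libraries the soleus difference from EDL was 0.47. Egln1 (ENSMUSG00000031987) lies at chr8:124908587-124949324 on the minus strand. Egln2, the remaining prolyl hydroxylase gene, named here for its role, was at 15.4 FPKM ± 4.97 in EDL (n = 3), 20.1 FPKM ± 2.36 in psoas (n = 3) and 17.0 FPKM ± 1.504 in soleus (n = 4), with overlapping libraries.

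The alpha subunits differed in pattern: Epas1 was lowest in EDL, and Hif1a was lowest in psoas. Epas1, which encodes the alpha subunit known from endothelium and oxidative muscle, was at 1.997, 1.885 and 2.004 FPKM in EDL, at 7.85, 4.38 and 5.71 FPKM in psoas and at 6.44, 5.75, 3.20 and 6.04 FPKM in soleus. The EDL libraries hardly differed among themselves and lay below all 7 others. The level was 3.06-fold higher in psoas than in EDL (log2 fold change 1.61, SE 0.27, edgeR adjusted p = 0.0063) and 2.73-fold higher in soleus than in EDL (log2 fold change 1.45, SE 0.26, edgeR adjusted p = 0.00359). Psoas and soleus overlapped, with a log2 difference of -0.16 (95% interval -0.70 to 0.38). Both differences kept their direction in all 22 other settings, but the calls held in only 12 and 13 of them. The psoas call was lost without EDL 1 (edgeR adjusted p = 0.0305), EDL 2 (0.032), psoas 1 (0.0205), psoas 2 (0.012), psoas 3 (0.0166) or soleus 4 (0.0119), each left out singly. The soleus call was lost without EDL 1 (edgeR adjusted p = 0.0217), EDL 2 (0.0225), soleus 1 (0.0103), soleus 2 (0.0107) or soleus 4 (0.0115). Among untrimmed libraries the log2 fold changes were 1.47 and 1.37, near those of all libraries, with edgeR adjusted p values of 0.526 and 0.158. Epas1 (ENSMUSG00000024140) lies at chr17:86753700-86833410 on the plus strand.

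Hif1a, which encodes the broadly expressed alpha subunit, was at 5.79, 5.95 and 6.22 FPKM in EDL, at 4.56, 3.96 and 4.49 FPKM in psoas and at 4.80, 6.04, 4.84 and 5.77 FPKM in soleus. The psoas libraries were below all others, and EDL and soleus overlapped. The psoas difference from EDL was -0.46 on the log2 scale (SE 0.15, edgeR adjusted p = 0.0647) and that of soleus from psoas 0.31 (SE 0.14, edgeR adjusted p = 0.171), so neither passed the test. Hif1a (ENSMUSG00000021109) lies at chr12:73901375-73947530 on the plus strand and shares 330 exonic bases with the antisense gene Gm15283, which had 144 reads in all. Hif1a also shares 148 exonic bases with Gm49321, a protein-coding gene on the same strand with no entry among the deposited counts. The setting used for strand in the counting was not given in the sources used here.

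Within each library, the level of Epas1 relative to Hif1a does not depend on how the library was scaled. The ratio was 0.345, 0.317 and 0.322 in EDL, 1.72, 1.11 and 1.27 in psoas and 1.34, 0.952, 0.66 and 1.05 in soleus. Hif1a was therefore the more abundant of the pair in EDL, Epas1 in psoas, and neither consistently in soleus. The mean log2 ratio was 2.03 higher in psoas than in EDL (exact two-sided permutation test, p = 0.1) and 1.56 higher in soleus than in EDL (exact two-sided permutation test, p = 0.0571), the smallest p values that 3 against 3 and 4 against 3 libraries can give. The ratio of Egln3 to Egln1 was 0.141 ± 0.0281 in EDL (SD, n = 3), 0.0862 ± 0.0513 in psoas (n = 3) and 0.306 ± 0.0956 in soleus (n = 4). Soleus lay above both fast muscles in every library (exact two-sided permutation test, p = 0.0571 for each). With 21 such tests on 7 ratios, all Benjamini-Hochberg adjusted values were 0.233 or higher.

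**Figure D2:**
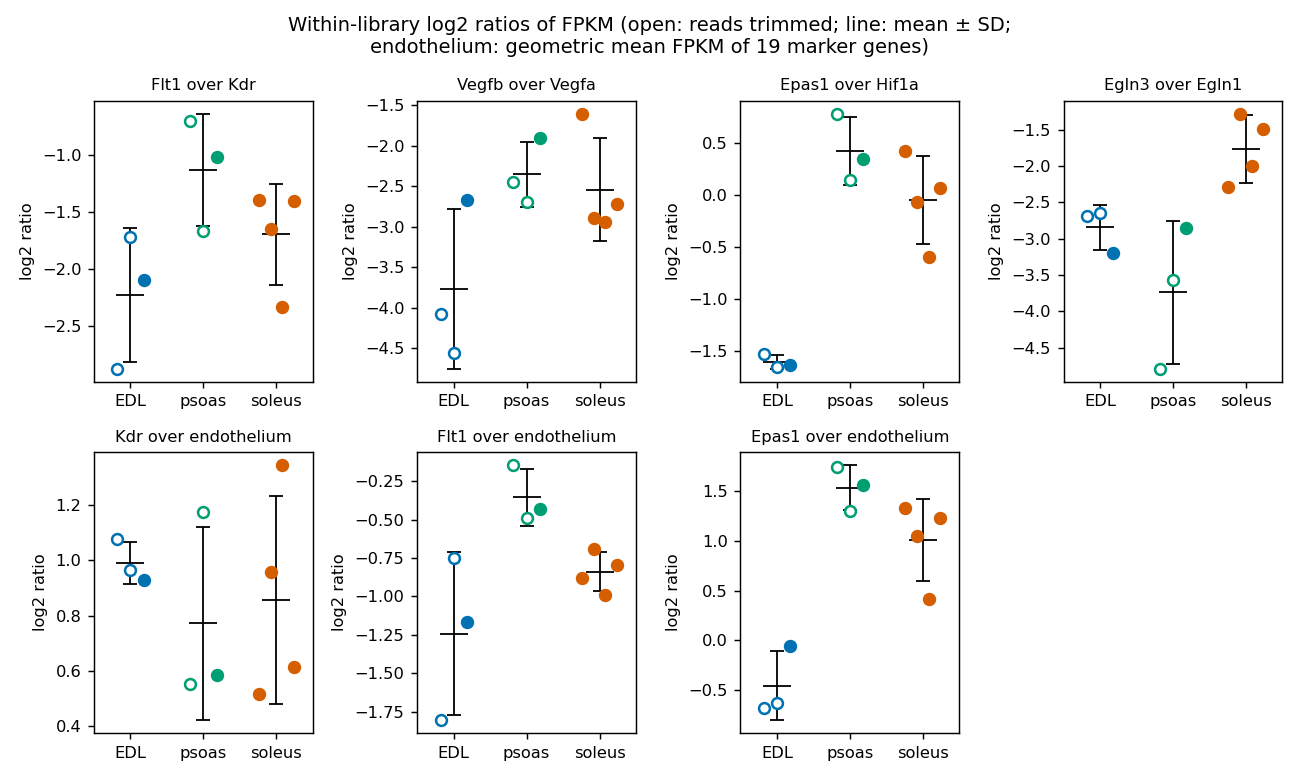
Log2 ratios of FPKM within each library (vertical axes) in EDL, psoas and soleus for 7 pairs; points are libraries, open where reads were trimmed, lines are the mean ± SD, and endothelium is the geometric mean FPKM of 19 endothelial marker genes. Epas1 over Hif1a and Epas1 over endothelium are lowest in the 3 EDL libraries, Egln3 over Egln1 is highest in the 4 soleus libraries, and Kdr over endothelium overlaps in all muscles.

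Vegfa, the principal growth factor for capillaries, was not detectably different between the muscles. It was at 13.5, 19.6 and 10.9 FPKM in EDL, at 21.1, 20.4 and 10.3 FPKM in psoas and at 14.0, 18.5, 20.6 and 14.3 FPKM in soleus. All muscles overlapped, and the log2 differences were 0.24 between psoas and EDL (95% interval -0.41 to 0.89), 0.20 between soleus and EDL (-0.41 to 0.81) and -0.04 between soleus and psoas (-0.64 to 0.57). The lowest levels in EDL and in psoas were those of the single untrimmed library of each muscle, also its only female one. The 4 untrimmed soleus libraries were all above both. With trimming as a covariate the soleus differences became 0.76 from EDL (edgeR adjusted p = 0.0931) and 0.57 from psoas (edgeR adjusted p = 0.172). Among the untrimmed libraries alone they were 0.59 (edgeR adjusted p = 0.388) and 0.70 (edgeR adjusted p = 0.273). Vegfa (ENSMUSG00000023951) lies at chr17:46016993-46032369 on the minus strand.

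Vegfb, which encodes a ligand of Flt1 known from oxidative muscle and heart, was low in EDL. It was at 0.80, 0.834 and 1.71 FPKM in EDL, at 3.86, 3.16 and 2.74 FPKM in psoas and at 4.60, 2.497, 2.68 and 2.17 FPKM in soleus. The EDL libraries were all below the other 7, and psoas and soleus overlapped. The level was 3.01-fold higher in psoas than in EDL (log2 fold change 1.59, SE 0.36, edgeR adjusted p = 0.0202) and 2.74-fold higher in soleus than in EDL (log2 fold change 1.45, SE 0.35, edgeR adjusted p = 0.0155), both short of the call. Each was called in 4 of 22 other settings, namely DESeq2, limma-voom, limma-voom with animal code as a random effect (limma adjusted p = 0.00816 and 0.00608) and without EDL 3, where the log2 fold changes were 1.997 (edgeR adjusted p = 0.00509) and 1.86 (edgeR adjusted p = 0.00391). Among untrimmed libraries they were 0.64 and 0.75. The gene had between 50 and 235 reads per library, the thinnest evidence among the 9. Vegfb (ENSMUSG00000024962) lies at chr19:6982473-6987651 on the minus strand. Relative to Vegfa, its ratio was 0.0863 ± 0.0621 in EDL (SD, n = 3), 0.201 ± 0.058 in psoas (n = 3) and 0.186 ± 0.0952 in soleus (n = 4), with overlapping libraries. EDL 3 carried much of the EDL value: its ratio was 0.157, against 0.0592 and 0.0425 in EDL 1 and EDL 2, whose mean was 0.0508.

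Neither receptor gene passed the test in any comparison. Kdr, the main signalling receptor of capillary endothelium, was at 6.74, 5.72 and 3.97 FPKM in EDL, at 3.42, 4.02 and 2.89 FPKM in psoas and at 3.64, 5.41, 6.08 and 3.93 FPKM in soleus. The muscles overlapped, with EDL 3 just below psoas 2. The psoas difference from EDL was -0.67 on the log2 scale (95% interval -1.21 to -0.13, edgeR adjusted p = 0.101). Flt1 was at 0.915, 1.74 and 0.927 FPKM in EDL, at 2.11, 1.26 and 1.43 FPKM in psoas and at 1.38, 1.72, 1.20 and 1.49 FPKM in soleus, and all muscles overlapped. Its log2 differences were 0.42 between psoas and EDL (95% interval -0.18 to 1.03) and 0.28 between soleus and EDL (95% interval -0.29 to 0.84). Kdr (ENSMUSG00000062960) lies at chr5:75932827-75978458 and Flt1 (ENSMUSG00000029648) at chr5:147561604-147726011, both on the minus strand.

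Kdr, Flt1 and Epas1 are also expressed by endothelium, so their levels were set against 19 endothelial marker genes. The summed level of these markers ranged from 210 to 373 CPM in EDL, from 199 to 261 CPM in psoas and from 248 to 297 CPM in soleus, and none was at or under 3 reads in every library. Of the 19, Egfl7 alone was called, lower in psoas than in EDL (log2 fold change -1.31, edgeR adjusted p = 0.00813), a call that held in 8 of 22 other settings and was lost without EDL 1, EDL 2, any single psoas library, soleus 1, soleus 2 or soleus 4 (log2 fold changes -1.504 to -0.998 over the libraries left out). Soleus therefore carried no called rise in any of the 19 over either fast muscle, and the median log2 difference of the list was -0.17 for soleus against EDL and 0.32 for soleus against psoas, against -0.05 and 0.02 over all genes. Between psoas and EDL it was -0.37, against 0.01 over all genes, with 16 of the 19 below 0. For soleus, 17 of the 19 were above 0 against psoas and 13 below 0 against EDL. Of all genes, 2.11% were called between psoas and EDL, 3.59% were called higher in soleus than in EDL and 2.99% higher in soleus than in psoas. At such shares, a list of 19 genes can hold no call whether or not endothelium differs. The ratio of Kdr to the geometric mean of the markers was 1.99 ± 0.107 in EDL (SD, n = 3), 1.74 ± 0.449 in psoas (n = 3) and 1.86 ± 0.506 in soleus (n = 4), with overlap throughout. Epas1 behaved otherwise, at 0.743 ± 0.189 times the markers in EDL, 2.93 ± 0.45 in psoas and 2.07 ± 0.525 in soleus, and its mean log2 difference from EDL after this division was 1.996 in psoas (exact permutation p = 0.1) and 1.47 in soleus (exact permutation p = 0.0571), where edgeR gave 1.61 and 1.45 without it. Flt1 over the markers was 0.442 ± 0.154 in EDL, 0.785 ± 0.103 in psoas and 0.561 ± 0.0495 in soleus, and psoas lay above the other muscles in each library.

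Counted together, 1 of the 9 genes was called between psoas and EDL (Epas1), where 2.11% of all genes tested were called. Between soleus and EDL 3 of 9 were called (Mb, Epas1 and Egln3), against 5.77% of all genes. Between soleus and psoas 2 of 9 were called (Mb and Egln3), against 5.69% of all genes. Every call was toward the muscle named first, and in that direction 0.54%, 3.59% and 2.99% of all genes were called, against 1.57%, 2.18% and 2.71% in the other direction. At an adjusted p under 0.05 with no limit on the fold change, 2, 5 and 2 of the 9 genes were called, against 11.1%, 18.6% and 14.5% of all genes. Libraries of the compared muscles did not overlap for 3 of 9 genes between psoas and EDL (29.6% of all genes), 5 of 9 between soleus and EDL (29.5%) and 3 of 9 between soleus and psoas (25.8%). The share between psoas and EDL is thus close to that of all genes. The median log2 fold change of the 9 genes was 0.29, 1.09 and 0.31 in the same order, against 0.01, -0.05 and 0.02 over all genes. The comparisons share libraries, so that each muscle enters 2 of them.

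**Figure D3:**
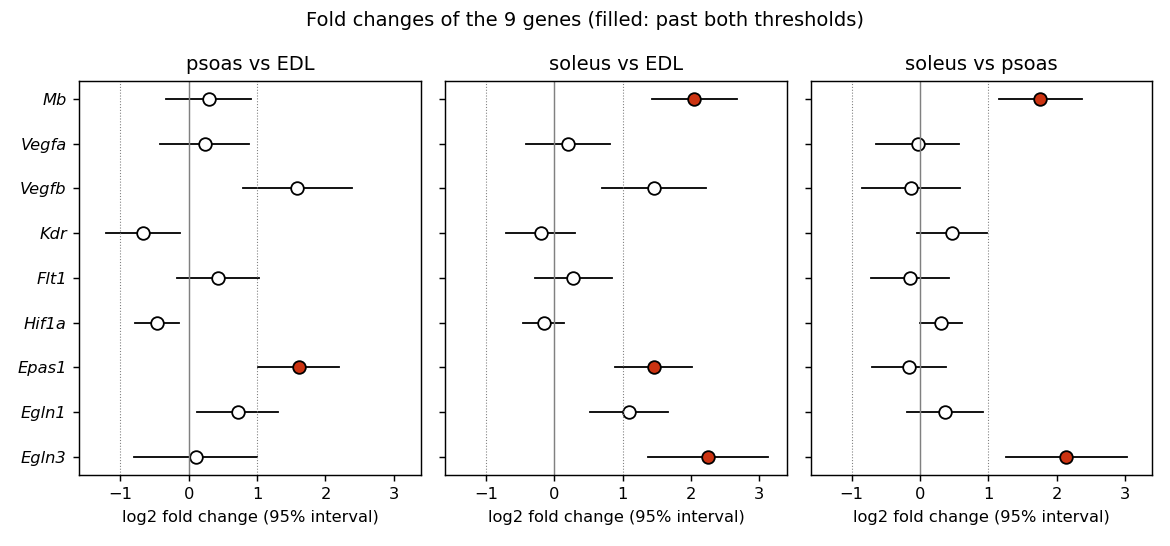
Log2 fold change (horizontal axes) of each of the 9 genes between psoas and EDL, soleus and EDL, and soleus and psoas, with 95% intervals; filled points passed both thresholds and dotted lines mark a fold change of 2. Mb and Egln3 are filled in both soleus comparisons, Epas1 in both comparisons with EDL, and the intervals of Vegfa and Flt1 include 0 in all 3.

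The levels fell into an order that the muscles shared at the top. By mean FPKM, Mb had the highest level in each muscle, Egln1 came next and Vegfa after it, although the Egln1 and Vegfa libraries overlapped in EDL. In EDL the others followed as Hif1a, Kdr, Egln3, Epas1, Flt1 and Vegfb, with Hif1a and Kdr overlapping and Flt1 and Vegfb overlapping. In psoas Epas1 came after Vegfa, and it and the 5 genes below it overlapped each with the next. In soleus Egln3 took that place, overlapping with Vegfa above it and apart from Hif1a below it.

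Across the 10 libraries, the closest pair of the 9 was Mb and Egln3, with a Pearson correlation of 0.94 of log2 CPM, followed by Vegfb and Egln1 at 0.86 and Vegfb and Epas1 at 0.84. Such values are descriptions, since the libraries fall into 3 muscles and share them. Among 12655 genes with a mean of at least 1 CPM, the pattern most like that of Mb was that of Pla2g12a, a secreted phospholipase gene, then Gm5514 and Ldhb, the heart-type lactate dehydrogenase subunit, each with a correlation of 0.99. Ldhb was at 48.6 FPKM in EDL, 72.2 FPKM in psoas and 549 FPKM in soleus on average. Gm5514 is a processed pseudogene whose reads cannot be told apart from those of a near-identical parent where one exists. The genes most like Egln3 were Myl3, a slow myosin light chain (0.99), Idh2, a mitochondrial isocitrate dehydrogenase (0.99), and Mybpc1, a slow myosin binding protein (0.98). Those most like Epas1 were Ube2o, Fam76a and Ap2b1 (0.97 to 0.98), and those most like Egln1 were Nrd1, Mrpl10 and Urm1 (0.97 to 0.98). For Vegfb they were Atp6v0d1, 1810013L24Rik and Ppif (0.96 each), and for Hif1a Prickle2, Pdia3 and Kcnk2 (0.96 to 0.98). Kdr was closest to Tspan11, Slc35f6 and Tifa (0.91 to 0.95), Vegfa to Cd151, Rsf1 and 2810402E24Rik (0.89 to 0.94), and Flt1 to Ankrd17, Bptf and Qrich1 (0.86 to 0.91).

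None of the remaining genes of the oxygen-sensing machinery passed both thresholds. Of 11 listed, 10 were measured, among them Arnt, Vhl, which encodes the ubiquitin ligase subunit that recognizes hydroxylated alpha subunits, and Hif1an, which encodes the asparagine hydroxylase. None was called in any comparison, where 2.11%, 5.77% and 5.69% of all genes were called, and none of the 6 other genes of the VEGF family (Vegfc, Vegfd, Pgf, Flt4, Nrp1 and Nrp2) was called either. Hif1an, singled out after its values were seen, was at 4.53, 4.45 and 17.8 FPKM in EDL. The untrimmed EDL library, also the only female one, thus stood apart from the trimmed male pair, as it did for Egln1. Cul2, a scaffold of the same ubiquitin ligase, and Cited2, which encodes a competitor of the alpha subunits, were singled out likewise. Cul2 was at 6.98 FPKM ± 0.373 in EDL (SD, n = 3) and 12.6 FPKM ± 1.24 in psoas (n = 3), with no overlap (log2 fold change 0.86, edgeR adjusted p = 0.0115). Cited2 was at 1.29 FPKM ± 0.167 and 2.57 FPKM ± 1.22, also with no overlap (log2 fold change 1.01, edgeR adjusted p = 0.0793). These were the only 2 of the 10 measured genes whose libraries stood apart between psoas and EDL, where 29.6% of all genes did.

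Target genes of the hypoxia-inducible factors moved in both directions. Of 25 listed outside glycolysis, 23 were measured, and none of these was called between psoas and EDL. In soleus 2 were called higher and 3 lower than in EDL, and 1 higher and 2 lower than in psoas. Of all genes tested, 2.11%, 5.77% and 5.69% were called in these comparisons. Pdk1, which encodes a kinase that limits the oxidation of pyruvate in mitochondria, was at 6.08 to 10.8 FPKM in EDL, 8.76 to 17.1 FPKM in psoas and 29.8 to 38.2 FPKM in soleus. It was higher in soleus than in EDL (log2 fold change 2.05, edgeR adjusted p = 0.000655) and in psoas (log2 fold change 1.34, edgeR adjusted p = 0.00607). The call over psoas held in 13 of 22 other settings and was lost without psoas 1, psoas 2 or any single soleus library (log2 fold changes 1.10 to 1.60 over the libraries left out). Bnip3, a mitophagy receptor gene, was at 56.6 to 63.8 FPKM in EDL and 145 to 222 FPKM in soleus (log2 fold change 1.63, edgeR adjusted p = 0.000479). Against psoas its log2 fold change of 0.997 had an edgeR adjusted p of 0.00658 and stayed just under the fold limit.

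Those that fell in soleus included Pfkfb3 and Pfkfb4, genes of the bifunctional enzymes that set the level of a fructose bisphosphate activating glycolysis. Pfkfb3 was at 9.70 to 12.8 FPKM in EDL, 4.36 to 9.14 FPKM in psoas and 0.697 to 1.71 FPKM in soleus, with log2 fold changes of -3.40 from EDL and -2.58 from psoas. Pfkfb4 was at 5.31 to 7.19 FPKM in EDL, 8.39 to 9.40 FPKM in psoas and 1.83 to 2.91 FPKM in soleus, with log2 fold changes of -1.33 and -1.88. P4ha1, a collagen prolyl hydroxylase gene, was at 17.7, 17.7 and 17.8 FPKM in EDL and 5.21 to 8.03 FPKM in soleus (log2 fold change -1.43, edgeR adjusted p = 0.000385). The Pfkfb3 call against EDL held in all 22 other settings. The median log2 fold change over the 23 genes was -0.16 from EDL and 0.01 from psoas, near the -0.05 and 0.02 of all genes.

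Of the 9 glycolytic enzyme genes that are also known targets, most calls were between soleus and psoas. None was called between psoas and EDL, 1 was lower in soleus than in EDL (Tpi1, log2 fold change -1.01, edgeR adjusted p = 0.00938, held in 5 of 22 other settings and lost when any 1 library was left out, with log2 fold changes from -1.18 to -0.87), and 6 were lower in soleus than in psoas. The 4 with the largest differences from psoas were Ldha (log2 fold change -1.93), Aldoa (-1.87), Gapdh (-1.57) and Pkm (-1.54), which encode muscle-type lactate dehydrogenase, aldolase, glyceraldehyde phosphate dehydrogenase and pyruvate kinase. The Aldoa call was lost without psoas 2, soleus 2 or soleus 4 and the Gapdh call without psoas 1, soleus 2 or soleus 4, with log2 fold changes from -2.03 to -1.74 and from -1.73 to -1.42 over the libraries left out. Ldha was at 93.0 to 157 FPKM in EDL, 209 to 242 FPKM in psoas and 43.8 to 71.7 FPKM in soleus. Of all genes, 5.69% were called in the soleus and psoas comparison and 5.77% when soleus was set against EDL. The median log2 fold change of the 9 was -0.71 for soleus against EDL, -1.54 for soleus against psoas and 0.53 for psoas against EDL. In the comparison of the fast muscles the libraries of 5 of the 9 stood apart without a call. Libraries stood apart there for 29.6% of all genes.

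**Figure D4:**
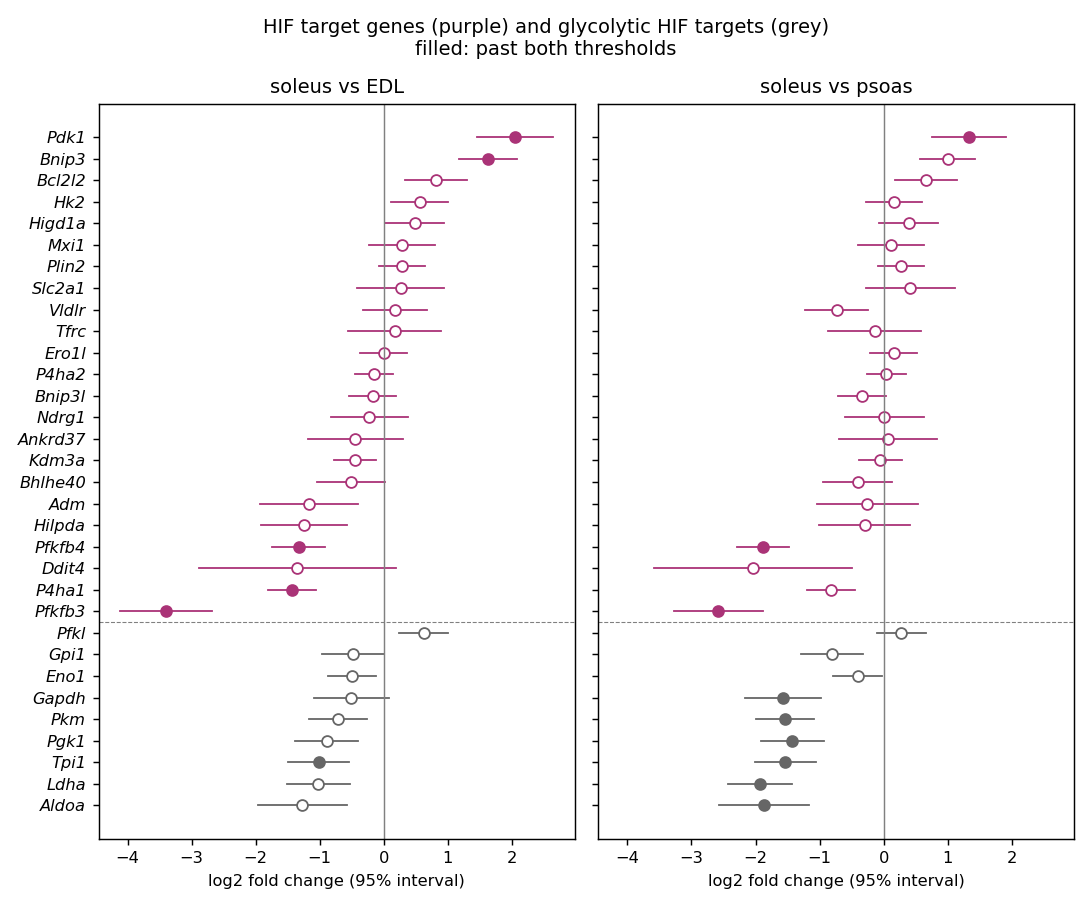
Log2 fold change of soleus against EDL (left) and psoas (right), with 95% intervals, for 23 target genes of the hypoxia-inducible factors (purple) and 9 glycolytic targets (grey, below the dashed line); filled points passed both thresholds. Pdk1 and Bnip3 lie furthest to the right and Pfkfb3 furthest to the left, and 6 glycolytic genes are filled against psoas.

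Among 19 other angiogenic ligands and receptors, Fgf1 and Thbs2 were called. Between the fast muscles 1 of the 19 was called, where 2.11% of all genes were. Soleus had 1 call relative to EDL and 2 relative to psoas, where the shares of all genes were 5.77% and 5.69%. Fgf1, a growth factor for endothelium and muscle precursors, was at 2.33 to 2.66 FPKM in EDL, 2.11 to 3.29 FPKM in psoas and 8.22 to 11.9 FPKM in soleus, which was higher than in EDL (log2 fold change 1.85, edgeR adjusted p = 0.000245) and than in psoas (log2 fold change 1.85, edgeR adjusted p = 0.000243). Thbs2, an inhibitor of angiogenesis made mainly by fibroblasts, was at 5.55 to 8.44 FPKM in EDL, 0.87 to 1.14 FPKM in psoas and 2.80 to 7.62 FPKM in soleus. It was lower in psoas than in EDL (log2 fold change -2.74, edgeR adjusted p = 0.00154, lost without psoas 2 at an adjusted p of 0.0108) and higher in soleus than in psoas (log2 fold change 2.33, edgeR adjusted p = 0.000842). Tendon markers moved with Thbs2. All 8 were lower in psoas than in EDL, 6 of them were higher in soleus than in psoas, and none was called between soleus and EDL. The difference from EDL was led by Col11a1, Tnmd, Kera and Comp (the first 3 of which lost the call without EDL 1 or other single libraries), and the summed level of the 8 ranged from 755 to 825 CPM in EDL, from 31.9 to 83.1 CPM in psoas and from 112 to 527 CPM in soleus. Their part in the Thbs2 result was not tested. Of 7 muscle fibroblast markers, Dcn and Gsn were lower in psoas than in EDL, and Pdgfra, Dcn and Lum were lower in soleus than in EDL, each a call that was lost without EDL 1 or other single libraries. All 7 had log2 fold changes below 0 in both comparisons, with medians of -1.36 and -1.08. Between soleus and psoas none of the 7 was called, 5 were above 0 and 2 below, and the median was 0.14.

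Markers of the other cell types were examined for the same reason. None of 10 pericyte and vascular smooth muscle markers, 6 measured nerve and Schwann cell markers and 6 measured erythroid markers was called. Calls made up 2.11% of all genes for the fast pair, 5.77% for soleus with EDL and 5.69% for soleus with psoas. At such shares, lists this short can lack a call even where the cell types differ. The library kit also removes globin transcripts, which limits the erythroid list. All 6 erythroid markers were below 0 in soleus against EDL and psoas (median log2 fold changes -1.55 and -2.48). In psoas against EDL all 6 were above 0 (median 0.78). The 6 nerve markers were all below 0 in soleus too (medians -0.47 and -0.85). Of the pericyte list, 8 of 10 were below 0 in psoas against EDL (median -0.51). In soleus against psoas 9 of 10 were above 0 (median 0.59). Of 10 macrophage markers, Mrc1 alone was called, lower in psoas (log2 fold change -1.66) and in soleus (-1.19) than in EDL, and both calls were lost without several single libraries, EDL 1 and EDL 2 among them (log2 fold changes -1.91 to -1.502 and -1.44 to -1.07 over the libraries left out). All 10 had log2 fold changes below 0 in both comparisons, with medians of -1.34 and -0.92, and their summed level ranged from 133 to 351 CPM in EDL, from 55.5 to 147 CPM in psoas and from 107 to 168 CPM in soleus. EDL thus had the highest median summed level of the macrophage list, 311 CPM against 114 CPM in psoas and 123 CPM in soleus, although EDL overlapped both, and the lowest Epas1 and Vegfb. The part of these cells in the levels of Epas1 and Vegfb was not tested. Of 7 measured adipocyte markers, Lpl was called, higher in soleus than in EDL (log2 fold change 2.80) and than in psoas (1.80), but muscle fibers also make it. The mean level of Lpl was 157 FPKM in soleus. The defining marker Adipoq was not called (log2 fold change 1.82 from EDL, edgeR adjusted p = 0.064). The summed level of the list, 243 to 264 CPM in EDL, 467 to 541 CPM in psoas and 1686 to 1803 CPM in soleus, was almost all Lpl. Without Lpl, the other 6 genes summed to 8.73 to 25.8 CPM in EDL, 9.56 to 49.2 CPM in psoas and 32.0 to 145 CPM in soleus. All 7 had log2 fold changes above 0 in soleus against either fast muscle, and their part in the levels of Mb and Egln3 was not tested.

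Regulators of mitochondrial genes, which share targets with the oxygen pathway, were compared as a last list. Of 10, Esrrg was called in all 3 comparisons, with mean levels of 0.388 FPKM in EDL, 1.11 FPKM in psoas and 4.68 FPKM in soleus. The log2 fold changes were 1.52 for psoas over EDL (edgeR adjusted p = 0.0023, lost without EDL 1 or psoas 1), 3.60 for soleus over EDL (edgeR adjusted p = 4.64e-06) and 2.07 for soleus over psoas (edgeR adjusted p = 8.96e-05). Esrrb was called in both soleus comparisons (log2 fold changes 4.12 and 2.71), and Esrra (1.24) and Ppara (2.33) were called between soleus and EDL. In the order given for Esrrg, 1, 4 and 2 of the 10 were called, against 2.11%, 5.77% and 5.69% of all genes. The Esrra call was lost without EDL 1, EDL 2 or soleus 3 and the Ppara call without EDL 1 (log2 fold changes 1.01 to 1.45 and 2.15 to 2.62 over the libraries left out). Ppargc1a itself was at 3.43 FPKM ± 0.27 in EDL, 5.11 FPKM ± 0.886 in psoas and 4.31 FPKM ± 0.32 in soleus and was not called.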

How the data were processed

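Muscles were stored in RNAlater, total RNA was depleted of ribosomal and globin RNA, and stranded libraries were sequenced. According to the methods of the study, libraries of low quality were trimmed by the authors (Trimmomatic) before alignment to mouse GRCm38.p4 (TopHat), reads were counted per gene with GenomicFeatures and GenomicAlignments, and a gene needed 10 reads or more in 3 libraries or more. The deposited values are raw read counts per gene for each library, and each of the 16112 deposited genes met that rule. Whether strand was used in counting and how reads with several positions were treated are not given in the sources used here. Gene names, exon lengths and coordinates were taken from GENCODE M21 (GRCm38), which named 16032 of the genes.

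Counts were scaled by TMM and tested in 1 fit over the 10 libraries with edgeR 4.0.16 (glmQLFit and glmQLFTest, R 4.3.3), with muscle as the factor, no covariate, and Benjamini-Hochberg adjustment over all genes. Calls required, as in the study, an adjusted p below 0.01 together with a change of more than 2-fold. FPKM is the TMM-scaled CPM (counts per 1000000 reads) per kilobase of exon. Ratios of 2 genes within a library were compared by exact two-sided permutation tests of the mean log2 ratio (scipy 1.17.1), adjusted over 21 tests. Correlations used log2(CPM + 0.5). Confidence intervals are at 95%. A level of 3 reads corresponded to 0.0595 to 0.236 CPM, depending on the library; such a floor covers counting error only.

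The 9 genes, the lists of related genes and the tests were chosen with earlier results of these data known. All 9 genes were named, and from each list the genes past both thresholds, all of them up to 5 and otherwise the 4 with the largest change, and the 3 genes most correlated with each of the 9. Nothing in the sources ties every library to an animal of its own, so that p-values measure the spread between these libraries. The alternatives were DESeq2 1.42.0, limma 3.58.1 with voom, other scalings and filters, fits of 2 muscles alone, trimming, sex, replicate number or animal code as terms, untrimmed libraries alone, each library left out, and a fit without the 4 libraries of low mapping, which was chosen after seeing the data. The scripts were tested on simulated data. Genes left out of the deposited files were not analysed here.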

Additional observations from a re-analysis of the deposited data

Results flagged for a closer look

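The ratio of Vegfb to Vegfa stood out in a single soleus library. In soleus 1 the log2 ratio was -1.61, while the other soleus libraries lay between -2.94 and -2.72, and the gap divided by the range was 0.837, above Dixon's 95% critical value for 4 libraries. Vegfb was at 4.60 FPKM in that library, from 108 reads, against 2.17 to 2.68 FPKM in the others, and Vegfa was at 14.0 FPKM, the lowest of the soleus libraries. Soleus 1 was among the libraries with a low share of mapped reads. Over 16 such values tested in soleus, 1 was flagged, and chance flags about 1 in 20. The EDL and psoas groups have 3 libraries each and were not tested in this way.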

How the results depend on the processing

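All genes called by edgeR numbered 340 for psoas against EDL, 929 for soleus against EDL and 917 for soleus against psoas. With the DESeq2 Wald test they numbered 1095, 1520 and 1382, at an adjusted p under 0.05 with no fold limit 1789, 2995 and 2340, and with read trimming as a covariate 605, 371 and 566. They numbered 865 between psoas and EDL with sex as a covariate (without soleus 3) and 153 when these muscles were fitted alone. Among the untrimmed libraries alone they numbered 0, 48 and 33, and without the 4 libraries of low mapping 0, 234 and 35. In both settings a lone EDL or psoas library is assumed to vary like the other groups, and for the counts of 0 edgeR gave 1172 and 1854 genes at an unadjusted p under 0.05. Leaving out 1 library gave 61 to 963 (the extremes without psoas 2 and without EDL 3), 385 to 1511 (without EDL 1 and EDL 3) and 493 to 964 (without psoas 2 and EDL 3). The share of calls that were higher in psoas than in EDL was 25.6%, against 38.2% with limma-voom, 39.2% with DESeq2, 42.8% with animal code, 15.1% with the replicate block, 7.19% with these muscles alone and 10.1% to 42.2% over libraries left out, and upper-quartile scaling moved the median of all genes between soleus and EDL from -0.05 to -0.14 without ending a call among the 9 genes.

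Of the 9 genes, 1, 3 and 2 were called in the same order of comparisons. DESeq2 and limma-voom each called 2 between psoas and EDL and 5 between soleus and EDL, as did the 0.05 threshold, and with animal code as a random effect 2 were called between psoas and EDL. Psoas and EDL fitted alone called 0, and soleus and psoas fitted alone called 1. With trimming as a covariate soleus and EDL had 1 call, soleus and psoas 0. The untrimmed libraries called 0 in each comparison (edgeR, 1, 4 and 3 at an unadjusted p under 0.05), and without the low-mapping libraries 0, 1 and 0 were called. Leaving out 1 library gave 0 to 3, 1 to 5 and 1 to 2.

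Replicate numbers did not pair all libraries: soleus 2 and soleus 3 differed in age from the EDL and psoas libraries of the same number. The correlation of deviations was 0.25 for EDL 1 and psoas 1, 0.34 for EDL 1 and soleus 1, and 0.50 for EDL 3 and psoas 3. It was 0.09 for EDL 2 and psoas 2 and -0.23 for psoas 2 and soleus 2. EDL and psoas libraries of the same number also shared age, sex and trimming, so the correlations cannot decide whether they were paired. The 3 pairs sharing an animal code had 0.19, 0.34 and 0.38, and with that code as a random effect in limma-voom 2, 4 and 2 of the 9 genes were called, Vegfb being added in both comparisons with EDL. With the replicate block 146, 586 and 539 of all genes and 0, 2 and 2 of the 9 genes were called.

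Differences near 0 changed sign. For Egln3 between psoas and EDL the log2 fold change was -0.26 with limma-voom, -0.0138 with trimming, -0.0306 with sex, -0.0421 with the replicate block, -0.21 with animal code and -0.43 to 0.49 over libraries left out. For Vegfa it was -0.12 (untrimmed) and -0.63 (low mapping removed) between psoas and EDL, and between soleus and psoas 0.0216 with limma-voom, 0.57 with trimming, 0.072 with sex, 0.0949 with the block, 0.0261 with animal code, 0.70 untrimmed, 0.82 with low mapping removed and -0.30 to 0.11 over libraries left out. For Kdr between soleus and EDL it was 0.16, 0.21 and 0.0503 with trimming, untrimmed and with low mapping removed, and for Flt1 between soleus and psoas 0.11, 0.0079 and 0.0676 in that order and -0.29 to 0.0847 over libraries left out. Between soleus and psoas, Egln1 was at -0.0031 with trimming, Epas1 at 0.0221 with sex and at -0.33 to 0.0665 over libraries left out, and Vegfb at 0.11 untrimmed. The log2 ratio of Egln3 to Egln1 between psoas and EDL was 0.35 untrimmed, and between soleus and psoas those of Vegfb to Vegfa and of Kdr to endothelium ran from -0.50 to 0.032 and from -0.0766 to 0.29 over libraries left out. The cause of these changes was not tested. Limits on the 9 genes include 3 libraries per fast muscle, low mapping in 4 libraries, and the 50 to 235 reads of Vegfb. Each fast muscle has 1 untrimmed library, which is also its only female one.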
